A study of Mus musculus with 12 samples.

Results

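The 10 genes described here encode the transcription loop of the mammalian circadian clock: Arntl (also named Bmal1), Clock, Per1, Per2, Per3, Cry1, Cry2, Nr1d1, Nr1d2 and Dbp. They were taken by symbol, through the mouse Ensembl identifiers, from a table of raw RNA-seq read counts of 55487 genes. All 10 matched a row, and all 10 were among the 11314 protein-coding genes that passed the filter on low counts. The table covers bone marrow-derived mesenchymal stromal cells (MSCs), primary cells from wild-type C57BL/6 mice, in 3 groups of 4 samples. Negative samples were untreated. A1 samples received 50 uM of A1 for 6 h. A1-OVA samples received 50 uM of A1 together with 1 mg/ml of chicken ovalbumin (OVA) for 6 h. A1 is a variant of Accum, a bile acid coupled to a nuclear localization peptide, and OVA is a model protein antigen. The protocol text for the A1-OVA medium also names insulin, with no amount. There was no group with OVA alone. The study's question in RNA-seq was which transcripts differ between untreated MSCs and MSCs given A1, with the antigen or without it. Treated cells were collected after a single incubation time of 6 h, and the sources used here give no incubation time for Negative cells. Those sources give neither the hour of the day nor whether Negative cells received fresh medium at the start of the 6 h. They also do not say whether the 4 samples of a group came from separate cultures or animals, so the p-values measure the spread between these samples, which may be technical.

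In the clock, the activators ARNTL and CLOCK form a dimer that binds E-boxes in the promoters of the Per and Cry genes, of Nr1d1 and Nr1d2, and of output genes such as Dbp. PER and CRY proteins accumulate, return to the nucleus and repress that dimer, while NR1D1 and NR1D2 (REV-ERB alpha and beta) repress Arntl through ROR elements, at which RORA and RORB activate. DBP, a PAR bZIP factor, activates genes with D-boxes, including Per genes, and NFIL3 represses through the same element. Cultured stromal cells and fibroblasts carry this loop, and serum, glucocorticoids and cAMP can reset its phase, in part through fast induction of Per1.

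Each library held between 13702348 and 16881995 counts, and 3 counts, taken as the smallest signal, corresponded to 0.177 to 0.229 CPM, the counts of a gene per 1000000 counts of the library after TMM scaling. Of the 12 MSC markers listed, Cxcl12, Pdgfrb, Itgav, Pdgfra, Vcam1 and Cd44 each lay at 101.2 CPM or more in every sample, whereas Thy1, Nt5e, Lepr and Alcam did not exceed 1.02 CPM. The summed level of this list was 5287 to 5540 CPM in Negative, 3293 to 3378 CPM in A1 and 3345 to 3435 CPM in A1-OVA, most of it Cxcl12, and single markers went both ways. Of its 10 tested members, 3 were higher and 4 lower with A1, and 2 and 5 with A1-OVA (edgeR adjusted p under 0.05), or 70% in each, where 62.7% and 57.6% of all tested genes passed. Cxcl12 had log2 fold changes of -1.37 and -1.21, the hyaluronan receptor Cd44 1.39 and 1.20, and the integrin Itgav 0.70 and 0.65 (highest edgeR adjusted p = 1.95e-10). The 11 macrophage and leukocyte markers summed to 9.53 to 10.5, 12.1 to 15.0 and 10.7 to 13.2 CPM in the same order, most of it Cd14, while C1qa, C1qb and Tyrobp had 0 counts in all 12 samples. The adipocyte list, most of it Fabp4, summed to 64.2 to 70.5, 62.7 to 71.1 and 65.9 to 78.9 CPM, whereas Adipoq fell by 1.71 and 1.67 on the log2 scale, from 16 to 45 counts in Negative to 8 to 10 in A1 and 3 to 15 in A1-OVA (highest edgeR adjusted p = 1.48e-04). Cidec, at 9 to 31 counts, had -0.78 and -0.54 (edgeR adjusted p = 0.00802 and 0.0432), and the A1-OVA call was lost with DESeq2 (adjusted p = 0.113), with the replicate block (0.0553), with no filter on low counts (0.0664) and without A1-OVA sample 1, 2 or 3 or Negative sample 1 or 3 (0.0506 to 0.152). The osteoblast list, most of it Alpl, summed to 15.7 to 16.5, 9.95 to 13.5 and 10.6 to 11.6 CPM, and its 2 tested members went opposite ways. Alpl had -0.75 and -0.69 on the log2 scale, and Dmp1, from 7 to 15 counts in Negative to 29 to 36 in A1 and 21 to 24 in A1-OVA, had 1.71 and 0.97 (highest edgeR adjusted p = 0.00104). Lymphocyte, endothelial and erythroid lists each summed to less than 1 CPM in every sample. The part of these shifts in the clock results was not tested. In bulk RNA, fewer cells that express a gene and less RNA per cell cannot be told apart.

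With A1, 6 of the 10 clock genes passed the test against Negative (edgeR's quasi-likelihood test, Benjamini-Hochberg adjusted p under 0.05). Nr1d1 and Cry1 were higher, and Per1, Per2, Per3 and Dbp were lower. The background of calls was high, as 62.7% of all tested genes passed in this comparison, 31.7% as higher and 31.1% as lower, so that a share of 6 in 10 is close to that of all tested genes. With A1-OVA, 6 of the 10 also passed, with Nr1d1 and Cry1 higher and Arntl, Per2, Per3 and Dbp lower, where 57.6% of all tested genes passed, 29.7% higher and 27.9% lower. Both comparisons use the same 4 Negative samples. The changes that also reached an absolute log2 fold change of 0.5 were those of Dbp and Per3 with A1, beside 21% of all tested genes, and those of Dbp, Per3 and Nr1d1 with A1-OVA, beside 17.7%. The median absolute log2 fold change of the 10 genes was 0.299 with A1 and 0.268 with A1-OVA, against 0.229 and 0.204 over all tested genes, and their median signed log2 fold change was -0.10 and -0.03. The size of the change therefore ranged widely within the loop, from Clock and Nr1d2 near 0 to Dbp at 34.7% of its Negative mean.

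**Figure D1:**
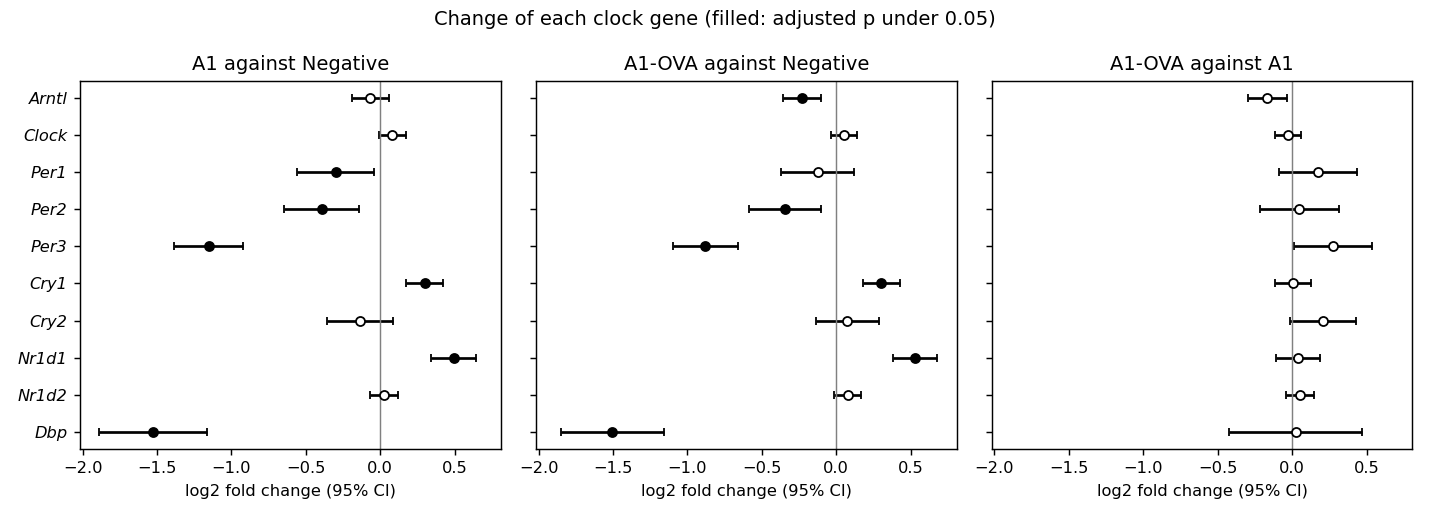
Log2 fold change of each clock gene (horizontal axis) with its 95% confidence interval, for A1 against Negative (left), A1-OVA against Negative (middle) and A1-OVA against A1 (right). Filled points have an adjusted p under 0.05: Dbp and Per3 lie far left of 0 in the first 2 panels, Nr1d1 and Cry1 lie right of it, and no point is filled in the third.

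Arntl and Clock encode the activators. Arntl (ENSMUSG00000055116, chr7:113207465-113314126 on the plus strand in GRCm38) measured 33.7, 34.2, 31.3 and 34.8 CPM in Negative samples 1 to 4. In A1 it measured 30.6, 32.1, 35.4 and 30.1 CPM, and in A1-OVA 29.6, 30.01, 27.2 and 27.4 CPM. All 4 A1-OVA samples lay below all 4 Negative and all 4 A1 samples, whereas A1 and Negative overlapped. Arntl fell with A1-OVA, to 85.2% of the Negative mean (log2 fold change -0.23, SE 0.06, edgeR adjusted p = 0.00255). With A1 the log2 fold change was -0.066 with a 95% interval of -0.19 to 0.061 (edgeR adjusted p = 0.359). Without TMM factors this A1 difference was -0.15 and passed, with an edgeR adjusted p of 0.0405. The promoter of its second start in RefSeq (GRCm38.p6) holds a ROR element, the site through which NR1D1 acts in the textbook loop, and the 30 bases around it are shown for that reason. They lie at chr7:113207530-113207559 on the plus strand, after the start, and the capitals mark the element.
Arntl: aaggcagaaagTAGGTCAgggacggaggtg

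Clock (chr5:76209868-76304792, minus strand), which encodes the partner of ARNTL, did not pass in any comparison. It ranged over 140.3 to 161 CPM in Negative, 152 to 164 CPM in A1 and 149.6 to 159 CPM in A1-OVA, and the 3 ranges overlapped. The intervals of its log2 fold change were -0.0066 to 0.17 with A1 and -0.033 to 0.14 with A1-OVA, which bounds any difference from Negative to less than 0.2 on the log2 scale. Clock passed in both comparisons once Negative sample 2, its highest Negative sample, was left out (edgeR adjusted p = 0.0117 and 0.0466).

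The Per genes encode the repressors of the loop, and Per3 showed the largest change among them. Per3 (ENSMUSG00000028957, chr4:151003652-151044665, minus strand) measured 9.96, 10.6, 11.6 and 12.7 CPM in Negative samples 1 to 4. In A1 it measured 4.56, 5.73, 4.89 and 5.01 CPM, and in A1-OVA 5.29, 5.64, 7.00 and 6.41 CPM. Every treated sample lay below every Negative sample, with a gap between 7.00 and 9.96 CPM. Per3 fell to 44.9% of the Negative mean with A1 (log2 fold change -1.15, SE 0.11, edgeR adjusted p = 1.13e-08). With A1-OVA it fell to 54.2% (log2 fold change -0.88, SE 0.11, edgeR adjusted p = 3.10e-07). These levels rest on 63 to 106 counts per treated sample and 161 to 203 per Negative sample. Per3 lies inside the span of Camta1 on the same strand, but the annotation gives them 0 exon bases in common. The D-box is the element of DBP and NFIL3, and it was searched only in the form TTANGTAA. Among the 13 promoters of 9 members in the RefSeq table, that of Per3 was the only one with this form, and it held 2 of them. The 250 bases before its start, chr4:151044666-151044915 on the minus strand, are shown with both D-boxes in capitals, at 205 and 158 bases before the start.
Per3: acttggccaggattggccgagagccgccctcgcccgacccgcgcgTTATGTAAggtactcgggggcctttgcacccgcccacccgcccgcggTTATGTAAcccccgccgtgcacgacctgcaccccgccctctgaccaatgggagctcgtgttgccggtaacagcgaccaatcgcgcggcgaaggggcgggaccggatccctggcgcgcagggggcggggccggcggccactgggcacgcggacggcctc

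Per2 (chr1:91415982-91459324, minus strand), which carries much of the repression in the textbook loop, also fell. It measured 9.22, 11.5, 12.4 and 14.7 CPM in Negative, 9.47, 8.63, 8.32 and 9.88 CPM in A1 and 8.99, 8.55, 11.2 and 8.94 CPM in A1-OVA. Negative sample 1 lay among the treated samples and the other 3 Negative samples lay above them all. The means were 11.9 ± 2.26 CPM, 9.07 ± 0.723 CPM and 9.41 ± 1.18 CPM (SD, n = 4 in each group). Per2 fell with A1 (log2 fold change -0.39, SE 0.12, edgeR adjusted p = 0.00741) and with A1-OVA (log2 fold change -0.34, SE 0.12, edgeR adjusted p = 0.0158). The second call was lost without A1-OVA sample 2 (edgeR adjusted p = 0.0522) and without Negative sample 4 (adjusted p = 0.0910).

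Per1 (chr11:69095217-69109960, plus strand) is the Per gene that resetting signals induce fastest. It measured 10.7, 10.6, 12.4 and 14.1 CPM in Negative, 9.26, 11.3, 7.86 and 10.4 CPM in A1 and 10.7, 9.18, 13.4 and 10.7 CPM in A1-OVA. The A1 samples spread from below all Negative samples to above the lower pair of them, and A1-OVA spread from below them to between the upper pair. Per1 fell with A1 (log2 fold change -0.30, SE 0.12, edgeR adjusted p = 0.0399), but this call depended on single samples: the edgeR adjusted p rose to 0.0856 without A1 sample 1, 0.141 without A1 sample 3, 0.0795 without Negative sample 3 and 0.159 without Negative sample 4. With A1-OVA the log2 fold change was -0.12, with an interval of -0.37 to 0.12 (edgeR adjusted p = 0.386). No Per gene rose in either comparison. Negative sample 4 had the highest level of the 12 samples for all 3 Per genes, and Per3 fell with and without it. The promoter of the first RefSeq start of Per1 holds an E-box, the element of the activators, and is shown for comparison with the Per3 promoter above. It covers chr11:69098699-69098947 on the plus strand up to 2 bases before the start, with the E-box in capitals.
Per1: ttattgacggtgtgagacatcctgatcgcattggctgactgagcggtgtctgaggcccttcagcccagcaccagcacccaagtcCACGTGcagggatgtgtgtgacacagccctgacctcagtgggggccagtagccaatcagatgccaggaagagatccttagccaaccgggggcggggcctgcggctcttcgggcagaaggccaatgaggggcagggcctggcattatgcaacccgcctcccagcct

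Of the Cry genes, which encode the strongest repressors of the activators, Cry1 rose and Cry2 did not pass. Cry1 (ENSMUSG00000020038, chr10:85131700-85185064, minus strand) measured 30.1, 31.3, 31.6 and 29.03 CPM in Negative. It measured 36.9, 35.7, 36.9 and 40.4 CPM in A1 and 39.4, 38.4, 39.4 and 33.6 CPM in A1-OVA. All 8 treated samples lay above all 4 Negative samples, with A1-OVA sample 4 the closest to them. Cry1 rose to 123% of the Negative mean with A1 (log2 fold change 0.30, SE 0.06, edgeR adjusted p = 2.10e-04) and to 124% with A1-OVA (log2 fold change 0.30, SE 0.06, edgeR adjusted p = 1.60e-04). Cry2 (chr2:92403646-92434043, minus strand) ranged over 10.9 to 13.3 CPM in Negative, 9.69 to 12.9 CPM in A1 and 10.3 to 14.4 CPM in A1-OVA. Its groups overlapped in every comparison, and the intervals of its log2 fold change against Negative were -0.36 to 0.087 with A1 and -0.14 to 0.29 with A1-OVA (edgeR adjusted p = 0.281 and 0.554). The Cry1 promoter is shown because it was the only promoter of the 13 with both an E-box and an E-prime box, a variant of the E-box. It covers chr10:85185065-85185304 on the minus strand up to 11 bases before the start, and the capitals mark first the E-prime box, read on the other strand, and then the E-box.
Cry1: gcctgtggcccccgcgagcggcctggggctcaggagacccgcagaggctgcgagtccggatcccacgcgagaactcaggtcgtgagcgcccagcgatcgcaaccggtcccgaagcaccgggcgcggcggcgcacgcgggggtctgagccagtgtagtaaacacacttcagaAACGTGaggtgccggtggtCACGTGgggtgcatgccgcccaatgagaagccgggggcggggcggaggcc

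Of the nuclear receptors, Nr1d1 rose and Nr1d2 did not pass. Nr1d1 (ENSMUSG00000020889, chr11:98767932-98775333, minus strand), which encodes REV-ERB alpha, measured 15.3, 13.1, 13.6 and 13.7 CPM in Negative. In A1 it measured 18.4, 20.3, 20.8 and 18.95 CPM, and in A1-OVA 19.3, 21.5, 20.99 and 18.6 CPM. The 8 treated samples lay above the 4 Negative samples without overlap. Nr1d1 rose to 141% of the Negative mean with A1 (log2 fold change 0.49, SE 0.07, edgeR adjusted p = 6.32e-06) and to 144% with A1-OVA (log2 fold change 0.53, SE 0.07, edgeR adjusted p = 2.10e-06). It overlaps Thra on the opposite strand, with 263 exon bases in common, or 8.55% of the Nr1d1 exon length. Thra fell with both treatments (log2 fold change -0.50 and -0.41, edgeR adjusted p = 9.15e-08 and 1.23e-06), and the authors counted reads by strand.

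Nr1d2 (chr14:18204054-18239127, minus strand), which encodes REV-ERB beta, ranged over 59.6 to 65.5 CPM in Negative, 61.9 to 65.6 CPM in A1 and 63.4 to 67.6 CPM in A1-OVA. Its intervals against Negative were -0.068 to 0.12 with A1 and -0.013 to 0.17 with A1-OVA on the log2 scale (edgeR adjusted p = 0.653 and 0.136).

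Dbp, the output factor, had the largest change of the 10. Dbp (ENSMUSG00000059824, chr7:45705088-45710203, plus strand) measured 6.68, 6.27, 5.38 and 5.52 CPM in Negative samples 1 to 4. In A1 it measured 2.10, 2.98, 1.83 and 1.38 CPM, and in A1-OVA 1.67, 1.84, 2.64 and 2.22 CPM. Every treated sample lay below every Negative sample, and the highest treated value, in A1 sample 2, was 2.98 CPM. The means were 5.96 ± 0.618 CPM in Negative, 2.07 ± 0.673 CPM in A1 and 2.09 ± 0.433 CPM in A1-OVA (SD, n = 4 in each group). Dbp fell to 34.7% of the Negative mean with A1 (log2 fold change -1.53, SE 0.17, edgeR adjusted p = 1.24e-07) and to 35.1% with A1-OVA (log2 fold change -1.50, SE 0.17, edgeR adjusted p = 1.06e-07). The treated samples held 19 to 40 Dbp counts and the Negative samples 87 to 108, above the smallest signal of 3 counts in every library. Dbp shares 539 exon bases, or 18.0% of its exon length, with Sphk2 on the opposite strand. Sphk2 did not pass in either comparison with Negative (log2 fold change -0.096 and 0.067, edgeR adjusted p = 0.332 and 0.5005).

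**Figure D2:**
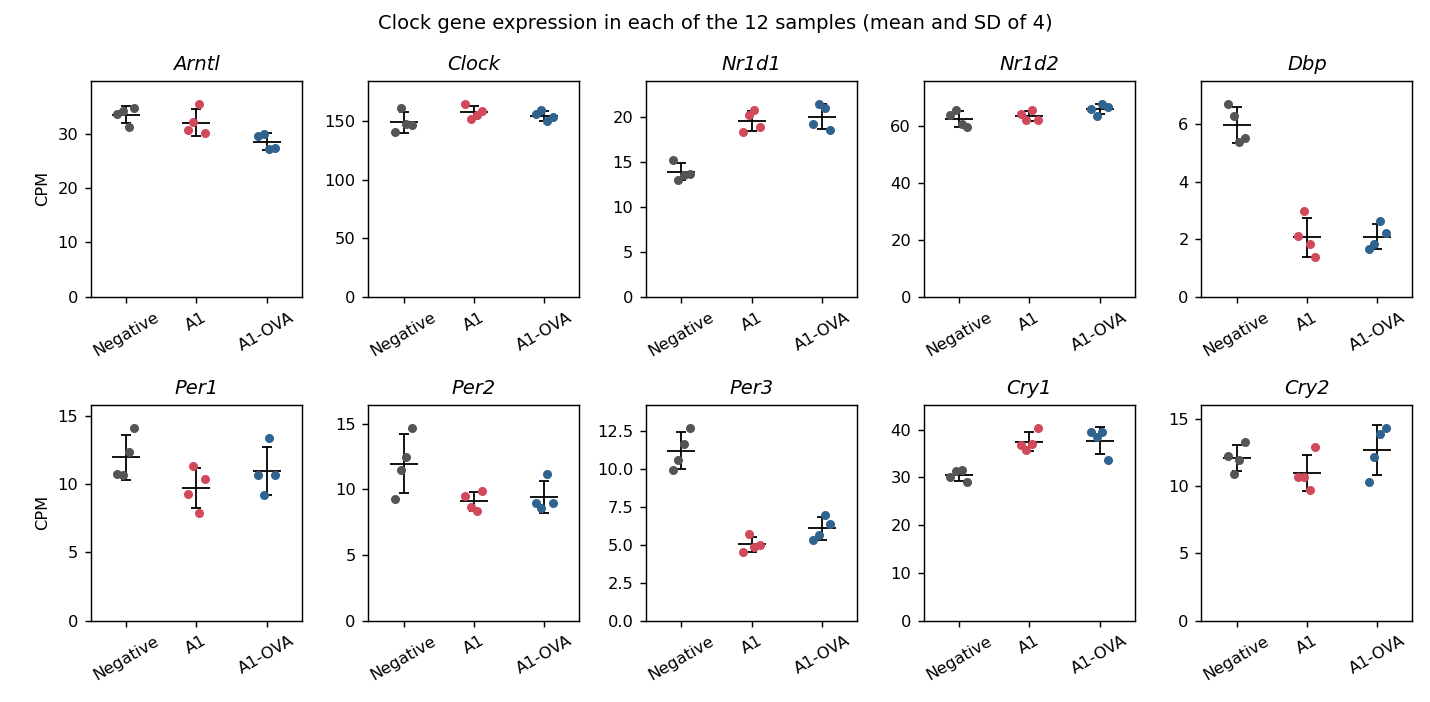
Level of each clock gene in CPM (vertical axis, starting at 0) in the 4 Negative, 4 A1 and 4 A1-OVA samples. Points are samples, and the bars give the mean and SD. The treated samples of Dbp, at 1.38 to 2.98 CPM, and of Per3, at 4.56 to 7.00 CPM, sit apart from and below Negative, and those of Nr1d1 and Cry1 sit above it.

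Adding OVA to A1 moved no clock gene past the test. In the comparison of A1-OVA with A1, 0 of the 10 genes had an edgeR adjusted p under 0.05, DESeq2 also called 0, and 2 had an unadjusted p under 0.05, Arntl and Per3. Over all tested genes 12.9% passed in this comparison, 6.05% as higher and 6.81% as lower, and 1.2% also reached an absolute log2 fold change of 0.5. Every A1-OVA sample had less Arntl than every A1 sample (log2 fold change -0.17, SE 0.06, edgeR adjusted p = 0.0857). Per3 was higher by 0.27 on the log2 scale, with an interval of 0.013 to 0.54 (edgeR adjusted p = 0.160), and its groups overlapped. For Dbp the interval was -0.43 to 0.47, so a difference of up to 0.4 in either direction lies within the interval at these counts. For Per1, Per2 and Cry2 the intervals were -0.087 to 0.44, -0.21 to 0.31 and -0.013 to 0.43. For Clock, Cry1, Nr1d1 and Nr1d2 they were narrower, at -0.12 to 0.061, -0.12 to 0.13, -0.11 to 0.18 and -0.039 to 0.15. The median absolute log2 fold change of the 10 genes was 0.051, beside 0.088 over all tested genes.

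Levels were also compared between genes, as CPM per kilobase of merged exon length, as a description. In Negative the order ran from Nr1d2 at 11.5 CPM per kb and Clock at 10.8, whose ranges overlapped, to Cry1 at 9.13, then Nr1d1 at 4.53 and Arntl at 4.45, which overlapped. Below them Per1, Per2, Dbp and Cry2, from 2.12 to 1.92 CPM per kb, each overlapped the next, and Per3 was lowest at 1.17. The order changed with treatment. Dbp, which overlapped Per2 and Cry2 in Negative, moved below Cry2 in the order and out of the range of Per2, to 0.692 CPM per kb in A1 and 0.698 in A1-OVA, where its range overlapped that of Per3. Nr1d1 separated from Arntl, at 6.37 against 4.26 CPM per kb in A1 and 6.53 against 3.80 in A1-OVA. Cry1 reached the range of Clock, at 11.2 CPM per kb in A1 and 11.3 in A1-OVA. The lengths are those of all annotated exons merged, which need not be the transcripts present.

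Paralogs were compared within each sample by the log2 ratio of their counts, which does not depend on the scaling of the library. All 5 paralog pairs among the 10 genes were tested in all 3 comparisons with a two-sided exact permutation test, and these 15 tests were chosen after the values had been seen. The Nr1d1 to Nr1d2 ratio was -2.33 to -2.06 in Negative, -1.81 to -1.61 in A1 and -1.84 to -1.56 in A1-OVA, and its mean differed from Negative by 0.47 (SE 0.07) and 0.45 (SE 0.08). The Per3 to Per1 ratio was -0.15 to -0.008, -1.05 to -0.69 and -1.01 to -0.70 in the same order, with differences of -0.85 (SE 0.09) and -0.76 (SE 0.08). The Per3 to Per2 ratio differed by -0.77 (SE 0.12) and -0.55 (SE 0.09). None of these ratios overlapped between Negative and either treatment. The Cry1 to Cry2 ratio was higher by 0.44 (SE 0.10) with A1 without overlap, but with A1-OVA the difference was 0.25 (SE 0.17) and the ranges overlapped (exact permutation p = 0.229, adjusted p = 0.343). The Per2 to Per1 ratio differed by -0.076 (SE 0.13) and -0.21 (SE 0.08), with overlapping ranges (exact permutation p = 0.571 and 0.0571). Each difference without overlap had an exact permutation p of 0.0286, the smallest that 4 against 4 samples allow, and an adjusted p of 0.0612 over the 15 tests, which does not pass 0.05.

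**Figure D3:**
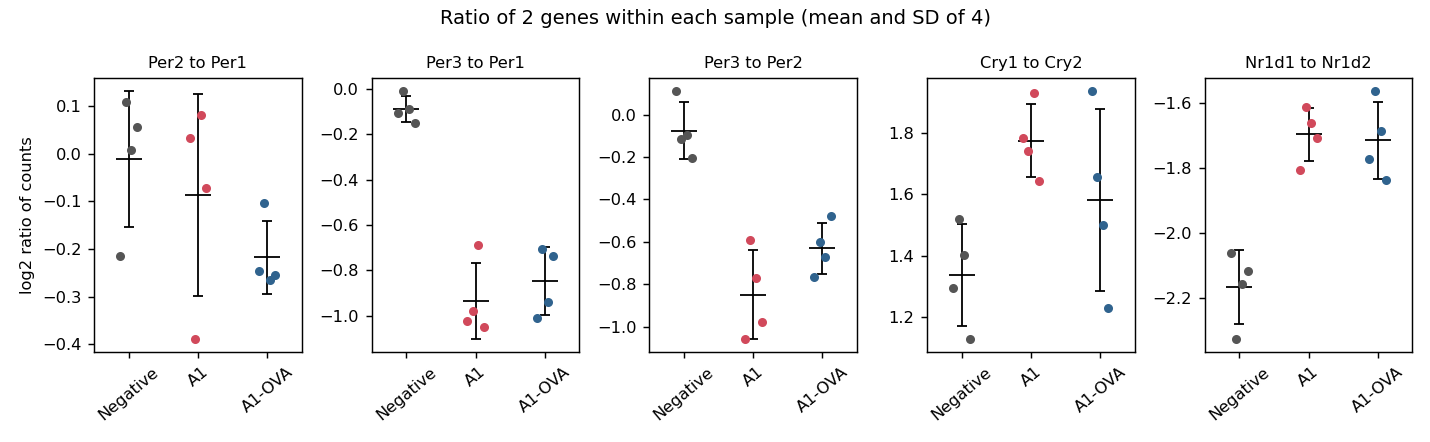
Log2 ratio of the counts of paralogous clock genes (vertical axis, a scale for each panel) within each of the 12 samples, with mean and SD per group. Per3 loses ground to Per1 and Per2 in all 8 treated samples, Nr1d1 gains on Nr1d2 in all 8, and the Cry1 to Cry2 ratio of A1-OVA, 1.23 to 1.94, spreads over the other groups.

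The further genes of the pathway were described from 4 lists of 65 genes, of which 56 were tested: transcription factors and repressors, kinases with phosphatases and ubiquitin ligases, cofactors, and rhythmic outputs. With A1, 16 of the 56 were higher and 15 lower, or 55.4% beside the 62.7% of all tested genes given above. With A1-OVA, 14 were higher and 15 lower, or 51.8% beside 57.6%. Between A1-OVA and A1, 2 were higher and 4 lower, or 10.7% beside 12.9%. Among the transcription factors, 2 of 9 tested were higher and 2 lower with A1, and 2 were higher and 3 lower with A1-OVA, or 44.4% and 55.6%. Bhlhe40 was higher in both (log2 fold change 0.37 and 0.42, edgeR adjusted p = 1.23e-07 and 1.67e-08). Timeless was higher with A1 (log2 fold change 0.24, edgeR adjusted p = 3.11e-04) and Ciart with A1-OVA (0.38, adjusted p = 0.0339). Nfil3 did not pass (log2 fold change 0.10 in each, edgeR adjusted p = 0.263 and 0.278). Tef, a PAR bZIP factor like Dbp, fell from 49.4 ± 2.86 CPM (SD, n = 4) in Negative to 30.7 ± 1.79 CPM in A1 (log2 fold change -0.69, SE 0.06, edgeR adjusted p = 1.10e-09) and to 34.8 ± 1.67 CPM in A1-OVA (log2 fold change -0.50, SE 0.06, edgeR adjusted p = 9.69e-08). Between A1-OVA and A1, Tef lay at the threshold (log2 fold change 0.18, edgeR adjusted p = 0.0502). It passed with the replicate block (adjusted p = 0.0293), library totals only (0.0429), upper-quartile scaling (0.0475), a stricter filter (0.0484) or only these 2 groups (0.0466). It also passed without A1 sample 1, A1-OVA sample 2 or Negative sample 1 or 2 (0.0353 to 0.0424). Rora, the activator at ROR elements, fell from 13.4 ± 0.586 CPM to 8.66 ± 0.259 CPM and 9.50 ± 0.820 CPM (log2 fold change -0.63 and -0.50, edgeR adjusted p = 7.76e-07 and 1.22e-05). Rorb fell with A1-OVA (log2 fold change -0.67, edgeR adjusted p = 1.95e-04) and had -0.25 with A1 (adjusted p = 0.0916). The difference between the treatments for Rorb did not pass (log2 fold change -0.41, edgeR adjusted p = 0.0589). Both calls on Rorb turn on single choices: it passed with A1 on library totals only (adjusted p = 0.0296) or without A1 sample 1 (0.0107), and the difference passed with DESeq2 (0.0499), with no filter on low counts (0.0210), without A1 sample 4 (0.0309) or without A1-OVA sample 1 (0.0216). Hlf and Npas2 had at most 6 counts in any sample and were not tested.

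Of the 9 tested rhythmic outputs, 6 were higher and 2 lower with A1, and likewise with A1-OVA, or 88.9% beside 62.7% and 57.6% of all tested genes. Their median absolute log2 fold change was no larger than that of all tested genes, at 0.214 and 0.193 beside 0.229 and 0.204. Noct, a deadenylase-like phosphatase that cycles in many tissues, rose from 20.7 ± 1.29 CPM to 40.7 ± 3.55 CPM and 41.5 ± 1.01 CPM (log2 fold change 0.98 and 1.00, edgeR adjusted p = 2.09e-11 and 1.22e-11). Tfrc, the transferrin receptor, rose by 1.46 and 1.33 on the log2 scale, and Cdkn1a, a cell cycle inhibitor, by 0.51 and 0.44 (highest edgeR adjusted p = 1.12e-06). The 2 lower outputs, named after their values were seen, were Nampt, the rate-limiting enzyme of NAD salvage, at -0.36 and -0.19 on the log2 scale, and the purine enzyme Pnp at -0.20 and -0.27 (highest edgeR adjusted p = 0.00443). Among 22 tested kinases, phosphatases and ligases, 6 were higher and 6 lower with A1, and 5 and 4 with A1-OVA, or 54.5% and 40.9% beside the same 62.7% and 57.6%. Fbxl15, an F-box protein, rose by 0.53 and 0.50 on the log2 scale (edgeR adjusted p = 0.0109 and 0.0154), with ranges that overlapped Negative. Its A1-OVA call was lost without Negative sample 2 or 4 (adjusted p = 0.0539 and 0.0636). Fbxl21, a ligase for CRY proteins, had 11 to 14 counts in Negative, 3 to 4 in A1 and 4 to 9 in A1-OVA, too near the smallest signal for a fold change. Of the 16 cofactors, 2 were higher and 5 lower with A1, and 1 and 6 with A1-OVA, or 43.8% in each, below the share of all tested genes. Within them Tbl1xr1, a corepressor subunit, fell (log2 fold change -0.59 and -0.50, edgeR adjusted p = 9.64e-08 and 8.56e-07).

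**Figure D4:**
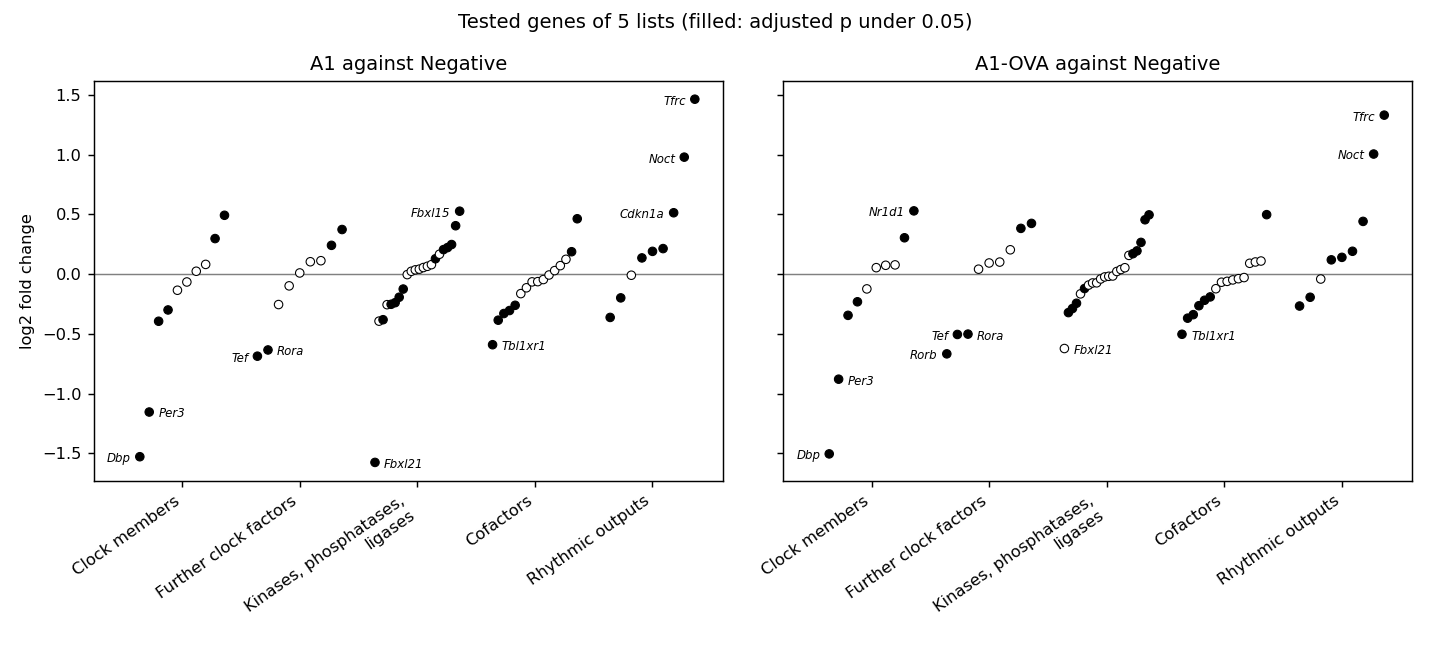
Log2 fold change (vertical axis) of the 10 clock genes and of the 56 tested genes of the 4 further lists, for A1 (left) and A1-OVA (right) against Negative, sorted within each list. Filled points have an adjusted p under 0.05, and genes at an absolute log2 fold change of 0.5 or more are named. Noct and Tfrc are highest in both panels. Fbxl21, which rests on few counts, is lowest with A1, followed by Dbp and Per3, and with A1-OVA Dbp and Per3 are lowest, followed by Rorb and Fbxl21.

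Since glucocorticoids and cAMP act on Per1 and on clock phase in cultured cells, genes of either pathway were listed too. Of 11 tested genes of the glucocorticoid list, 7 were higher and 1 lower with A1, and 7 and 1 with A1-OVA. The share was 72.7% in each, beside 62.7% and 57.6% of all tested genes. Besides induced genes this list holds the glucocorticoid receptor, Nr3c1, which did not pass (log2 fold change 0.052 and -0.048, edgeR adjusted p = 0.261 and 0.310). Errfi1 rose by 1.37 and 0.87 on the log2 scale, Sgk1 by 1.19 and 0.88, Fkbp5 by 0.90 and 0.85, Dusp1 by 0.64 and 0.71, Mt2 by 0.59 and 1.25, and Pdk4 by 0.53 and 0.48 (highest edgeR adjusted p = 3.54e-06). The member that was lower, named after its values were seen, was Tsc22d3 (Gilz), a classical glucocorticoid target, at -0.26 and -0.24 (edgeR adjusted p = 0.00288 and 0.00423). Most of these genes answer to other signals as well. Between A1-OVA and A1, 1 gene of the list was higher and 2 were lower, or 27.3% beside 12.9% of all tested genes. Mt2 was the higher one (log2 fold change 0.65), and Errfi1 and Sgk1 were lower (-0.49 and -0.32, highest edgeR adjusted p of the 3 genes = 3.87e-04). Per1, itself induced by glucocorticoids, was not higher in either comparison with Negative. Treated cells were collected only at 6 h, so a fast rise of Per1 before that time would not be seen. The cAMP and CREB list holds signalling components such as Creb1 and Crtc1 beside target genes. Of its 15 tested genes, 4 were higher and 5 lower with A1, and 2 and 5 with A1-OVA. These are 60% and 46.7%, below the same shares of all tested genes. Nr4a1 rose by 1.51 and 1.62, whereas Sik1 and Pde4b fell (log2 fold change -0.71 and -0.36 for Sik1, -1.32 and -2.08 for Pde4b, highest edgeR adjusted p = 1.31e-04). Fos, at 6 to 95 counts, had -1.68 and -0.73 (edgeR adjusted p = 5.69e-04 and 0.0512). Rgs2, at 7 to 32 counts, had -1.05 and -0.70 (edgeR adjusted p = 0.00236 and 0.0219). Both A1-OVA results turned on single choices. Fos passed with RLE scaling (edgeR adjusted p = 0.0454), upper-quartile scaling (0.0468), library totals only (0.0357) or no filter on low counts (0.00422). It also passed without A1 sample 3, A1-OVA sample 3 or Negative sample 3 or 4 (edgeR adjusted p = 0.00373 to 0.0453). Rgs2 did not pass with DESeq2 (adjusted p = 0.0574). Nor did it pass without A1-OVA sample 2 or 4 or Negative sample 1 or 4 (edgeR adjusted p = 0.0536 to 0.0950). Between A1-OVA and A1, 1 gene of the cAMP and CREB list was higher and 1 lower, or 13.3% beside 12.9% of all tested genes. They were Sik1 and Pde4b (log2 fold change 0.36 and -0.76, highest edgeR adjusted p = 0.00341). The log2 fold changes of Per1 against Negative were -0.30 and -0.12. Whether either pathway had a part in the clock results was not tested.

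Of the promoters in the RefSeq table (GRCm38.p6, 250 bases before to 50 bases after each start, both strands searched), 13 belong to 9 of the members. Per2 had no promoter there and was not searched. An E-box (CACGTG) was found in 2 of the 13, at Per1 and Cry1, and in 7.15% of all 32851 promoters. An E-prime box (CACGTT) was found at Cry1, Cry2 and Nr1d1, and in 4.68% of all promoters. The stretch right after the RefSeq starts of Cry2 and Nr1d1 matched no annotated transcript of those genes. The D-box (TTANGTAA) was found at Per3 alone, against 2.32% of all promoters, and the ROR element (TAGGTCA) at Arntl alone, against 2.61%. No member promoter held the cAMP response element (TGACGTCA), found in 1.79% of all, or the heat shock element searched (GAANNTTC), found in 7.86%. These motifs share no full match with one another. The promoters of Dbp, Clock and Nr1d2 held none of the 6 in this window. A match describes letters only, and binding was not measured here. Each element was searched in the given letters alone, so a promoter without a match may hold another form of it.

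**Figure D5:**
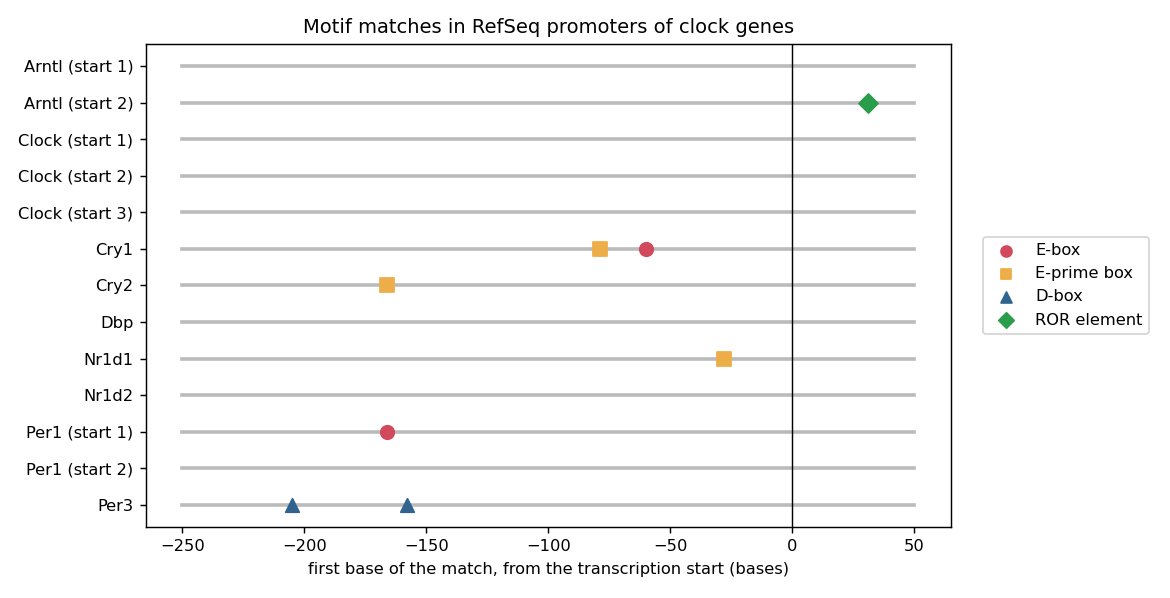
Motif matches in the 13 RefSeq promoters of 9 clock genes, with the distance of the first base of each match from the transcription start in bases (horizontal axis) and a row for each start. The 2 D-boxes lie at Per3, the E-boxes at Per1 and Cry1, and the ROR element after the second start of Arntl.

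For each clock gene, the tested gene outside the 10 whose log2 CPM ran most alike over the 12 samples was Zfp12 for Per3 (Pearson r = 0.993), Gpn2 for Nr1d1 (0.983), Spon2 for Dbp (0.979), Polh for Cry1 (0.958), Map3k15 for Nr1d2 (0.956), Med23 for Per2 (0.930), Ccnyl1 for Arntl (0.929), Gtf3c1 for Per1 (0.914), Aasdh for Cry2 (0.891) and Mlf1 for Clock (0.882). Each is the highest over all other tested genes, the 12 samples fall into 3 groups, and they describe likeness only. None of the 10 partners is a gene of the 4 further clock lists. Map3k15 and Spon2 are low genes, at 8 to 15 and 8 to 44 counts.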

How the data were processed

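RNA from 12 samples (4 Negative, 4 A1 and 4 A1-OVA) was measured by the authors with stranded mRNA libraries, aligned with STAR 2.7 to GRCm38 and summarized per gene with featureCounts 2.0. The deposited values are raw counts without normalization or a filter, 13702348 to 16881995 per sample. Gene symbols, exon lengths and coordinates came from GENCODE M21, which holds 99.53% of the identifiers, and promoters from RefSeq. Groups came from the sample titles. Protein-coding genes that passed filterByExpr (11314) were normalized by TMM and tested with the quasi-likelihood test of edgeR 4.0.16 (R 4.3.3) in a single fit of all 12 samples with the group as the only term. Benjamini-Hochberg adjustment ran over all tested genes, with a threshold of 0.05. The SE is the absolute log2 fold change divided by the square root of F. Paralog ratios were tested with scipy 1.17.1. Log2 CPM used a prior count of 2. DESeq2 1.42.0, other scalings, other filters, a replicate block and each sample left out were alternatives. The members, gene lists and motifs were chosen with earlier results of these data known. Some genes of the lists are not reported here and were left out of the counts. Up to 6 genes were named per list, those that passed with a log2 fold change of 0.5 or more in size in some comparison. Genes that overlap a member, Hlf, Npas2, Bhlhe40, Timeless, Ciart, Nfil3, Nampt, Pnp, Tsc22d3, Nr3c1, Creb1, Crtc1 and further markers were named after their values were seen. On counts simulated for A1 against Negative over 11314 genes, edgeR recovered 86% of genes changed 1.5-fold and 94% of those changed 2-fold. It also called 15 unchanged genes. The simulation changed only 100 genes at each size, as many up as down, whereas 62.7% of tested genes passed with A1 in the data. These shares need not hold there. Between replicates the chi-square per degree of freedom was 1.92 to 6.83, above counting noise in all 18 pairs.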

Additional observations from a re-analysis of the deposited data

Results flagged for a closer look

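In 123 groups of 4 samples (each named gene in each group), Dixon's gap criterion set 4 values apart, where chance sets about 1 in 20 apart. Of these groups 30 belong to clock genes, and 1 of them was set apart. Per2 in A1-OVA sample 3 reached 11.2 CPM, beside 8.55 to 8.99 CPM in the other 3 samples of that group. Without it the fall of Per2 with A1-OVA stayed past the threshold. Among the other named genes, Sgk1 in A1 sample 1 was the lowest of its group at 251 CPM, beside 288 to 295 CPM. Fbxl21 in A1 sample 1 was highest at 0.289 CPM (0.218 to 0.229 CPM in the others), and Alcam in Negative sample 1 was lowest at 0.124 CPM (0.371 to 0.414 CPM in the others). Both rest on a few counts.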

How the results depend on the processing

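The falls of Dbp and Per3 and the rises of Cry1 and Nr1d1 passed the threshold against Negative under every alternative run, with log2 fold changes of -1.75 to -1.38 and -1.63 to -1.42 for Dbp, -1.23 to -1.09 and -0.95 to -0.81 for Per3, 0.41 to 0.54 and 0.46 to 0.58 for Nr1d1, and 0.22 to 0.32 and 0.24 to 0.36 for Cry1 (A1, then A1-OVA). The number of clock genes called stayed between 5 and 7 of 10 in both comparisons when any sample was left out, and at 0 between A1-OVA and A1. Requiring an absolute log2 fold change of 0.5 left 2 and 3 clock genes, and 8, 6 and 0 of the 56 further genes. Between A1-OVA and A1, 6 further genes passed, 3 to 10 with a sample left out: 3 without A1-OVA sample 2 or 4, and 10 without Negative sample 1. Library totals without TMM lowered the median of all genes by 0.08 and 0.07 on the log2 scale. The share of calls that were higher was then 37.4%, 39.0% and 57.7%, against 50.5%, 51.5% and 47.1%. Clock with A1-OVA then had -0.011 and Nr1d2 with A1 -0.056 (-0.0050 with upper-quartile scaling), each against a positive value near 0. Signs between A1-OVA and A1 turned with single samples for Per2 (-0.043 to 0.094), Cry1 (-0.016 to 0.059), Dbp (-0.13 to 0.25), Fbxl15 (-0.069 to 0.015), Noct (-0.026 to 0.079), the markers Adipoq (-0.16 to 0.34) and Alpl (-0.012 to 0.15), none of them past the threshold. The replicate block left 6, 6 and 0 clock genes called and 33, 30 and 7 further genes, and changed no call of a clock gene. Same-numbered samples showed no shared deviation (mean r 0.021 over 12 pairs, against -0.0070 over 36 other pairs). This cannot decide whether they share a culture, animal or day, which the labels do not give. With 3 against 4 samples the exact test cannot go below 0.0571, so ratios were left as values when a sample was left out. The cause of these changes was not tested. The number of samples and the 19 to 40 counts behind Dbp in treated samples limit the precision.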
